A study of Homo sapiens with 6 samples.

Results

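The 10 genes described here are the immediate-early and AP-1 genes FOS, FOSB, JUN, JUNB, JUND, EGR1, IER2, ZFP36, DUSP1 and ATF3. They were taken from the 25702 NCBI Gene identifiers of each count table by gene symbol, and 10 of 10 were found and passed the filter on low counts. RNA was sequenced from K562, an established human cell line of myeloid leukemia, after nucleofection with an empty pCMV-HA plasmid (EV), or with the same plasmid carrying wild-type MXD3 or the fusion STIM1::MXD3. Each group had 2 libraries, numbered 1 and 2 in the labels, and the study describes them as independent transfections. The cells of all 3 groups therefore shared nucleofection, the pCMV-HA backbone and its strong viral promoter, and received no drug. Expression was transient and from a plasmid, and the bulk RNA came from whole cultures, so fewer cells that express a gene and less RNA of that gene per cell cannot be told apart. The labels give no time from nucleofection to harvest, and the study's methods state a general time after transfection for its expression assays without naming these libraries.

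Immediate-early genes are transcribed within minutes of a growth factor, stress or calcium signal, without new protein synthesis, through factors such as SRF with its ELK partners and CREB that are already in the cell. The products of the Fos, Jun and ATF families pair through leucine zippers into AP-1, a dimeric factor that binds TGANTCA sites, while Jun and ATF pairs also bind the CREB-type site TGACGTCA. ZFP36 and DUSP1 act in the opposite sense, ZFP36 by promoting decay of mRNAs with AU-rich elements and DUSP1 by removing phosphate from MAP kinases. Most of these mRNAs are short-lived, so their level follows recent transcription. In blood cells EGR1 and the AP-1 factors are best known from growth factor responses and from monocytic and megakaryocytic differentiation, and K562 cells respond to phorbol ester in this way.

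The 6 libraries held between 53048300 and 63835800 counts. MXD3 was at 9.33 and 11.7 CPM (counts per 1000000 counts of the library, scaled by TMM) in the EV libraries, at 2523 and 2162 CPM in the MXD3 libraries, and at 1975 and 1849 CPM in the STIM1::MXD3 libraries. STIM1, the other partner of the fusion, was at 471 and 453 CPM in the STIM1::MXD3 libraries and at 159 to 205 CPM in the other 4, so both measures matched the labels. The 10 erythroid and K562 markers were all expressed, with a summed level of 8661 to 9768 CPM in the 3 libraries numbered 1 and 7004 to 7867 CPM in the 3 numbered 2. The summed level of 11 markers of other cells was 129 to 150 CPM over the 6 libraries, most of it from EPCAM, and MS4A1 and KRT5 were at 0 in every library. Mitochondrial transcripts took 1.45% to 3.73% of counts and did not follow the library number, since the EV library numbered 1 was above its partner and the other 2 pairs were the other way around.

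The sequences before the start sites are shown for the genes whose levels carry the results below: EGR1, the gene with the largest difference among the 10, JUN, DUSP1 and JUND, the 3 that moved the opposite way, and FOS, which was barely expressed. Promoters of 10 of 10 genes were matched by symbol in a RefSeq table of GRCh38.p14, and each line holds the 250 bases before the start, 5′ to 3′ on the gene's strand. Capitals mark a CArG box (the SRF site: CC, then 6 bases that are A or T, then GG), TGACGTCA, TGACGT or CACGTG on either strand. EGR1 lies at chr5:138465229-138465478 (+), JUN at chr1:58784048-58784297 (-), DUSP1 at chr5:172771196-172771445 (-), JUND at chr19:18281623-18281872 (-) and FOS at chr14:75278578-75278827 (+).
EGR1: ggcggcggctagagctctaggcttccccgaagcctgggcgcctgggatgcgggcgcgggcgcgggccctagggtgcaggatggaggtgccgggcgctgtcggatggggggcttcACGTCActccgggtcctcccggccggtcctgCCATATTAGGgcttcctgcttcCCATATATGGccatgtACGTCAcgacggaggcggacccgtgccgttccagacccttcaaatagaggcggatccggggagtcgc
JUN: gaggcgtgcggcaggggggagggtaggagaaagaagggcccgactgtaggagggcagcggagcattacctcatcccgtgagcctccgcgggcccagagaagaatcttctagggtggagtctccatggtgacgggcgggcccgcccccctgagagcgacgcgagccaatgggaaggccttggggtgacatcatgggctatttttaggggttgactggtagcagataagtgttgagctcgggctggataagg
DUSP1: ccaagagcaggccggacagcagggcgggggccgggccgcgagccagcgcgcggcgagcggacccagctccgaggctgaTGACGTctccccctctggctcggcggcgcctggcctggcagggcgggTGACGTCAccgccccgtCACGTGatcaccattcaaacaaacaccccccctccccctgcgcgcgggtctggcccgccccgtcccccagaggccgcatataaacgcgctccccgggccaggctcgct
JUND: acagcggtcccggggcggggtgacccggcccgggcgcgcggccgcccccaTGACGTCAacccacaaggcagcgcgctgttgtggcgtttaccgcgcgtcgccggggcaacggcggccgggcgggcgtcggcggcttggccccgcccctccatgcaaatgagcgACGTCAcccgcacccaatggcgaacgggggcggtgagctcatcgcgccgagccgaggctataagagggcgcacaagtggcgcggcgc
FOS: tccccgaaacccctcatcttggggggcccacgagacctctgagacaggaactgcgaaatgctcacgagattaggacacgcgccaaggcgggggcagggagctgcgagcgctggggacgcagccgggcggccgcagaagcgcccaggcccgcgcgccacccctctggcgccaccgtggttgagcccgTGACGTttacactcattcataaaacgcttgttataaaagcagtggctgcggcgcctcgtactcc

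The EGR1 window held 2 CArG boxes, at 105 to 96 and at 83 to 74 bases before the start, and was the only one of the 10 genes with such a match, against 1.16% of the 35116 promoters in the table. TGACGTCA was present in the windows of JUND and DUSP1 (1.65% of all promoters). The shorter TGACGT, which is part of TGACGTCA and is counted with it, was present in FOS, FOSB, JUND, EGR1 and DUSP1 (7.1% of all promoters). The E-box CACGTG, the sequence bound by the MYC, MAX and MXD family, was present in the DUSP1 window alone, at 108 to 103 bases before the start, against 6.34% of all promoters. The AP-1 site TGANTCA (6.57% of all promoters) and the EGR site GCGTGGGCG (0.72%) were in no window of the 10 genes. ATF3 was matched at chr1:212565157-212565406 (+) and again at chr1:212614768-212615017 (+), and neither window held any of the motifs searched. The matches are of letters in a window, and binding was not measured. Only exact matches were counted. The sequence TGACATCA, a near match to TGACGTCA, is in the JUN window and in the ATF3 window at chr1:212565157-212565406 and was not searched. Bases farther than 250 before the start were not searched, so a gene without a match, such as FOS for the CArG box, may have the site elsewhere.

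Levels differed widely between the 10 genes. Per kilobase of exon, over all 6 libraries, JUND was the most abundant at 126 CPM per kb, followed by JUN at 55.4, IER2 at 35.5, JUNB at 21.0, DUSP1 at 15.5, ZFP36 at 9.89, ATF3 at 7.47, EGR1 at 2.28, FOSB at 0.163 and FOS at 0.112 CPM per kb. The ranges over libraries of JUND (85.6 to 178 CPM per kb) and JUN (21.6 to 83.0) did not overlap. ATF3 (4.65 to 10.4) and EGR1 (0.506 to 4.49) did not overlap either, nor did EGR1 and FOSB (0.0424 to 0.272). Neighbours from JUN down to ATF3 overlapped each other in range, as did FOSB and FOS. By the mean over the 6 libraries, JUND and JUN were the most abundant of these 10 genes, and the Fos partners FOS and FOSB the least. The place of JUN did not hold in every library. IER2 was above JUN in the second MXD3 library (140 against 87.1 CPM) and the second STIM1::MXD3 library (154 against 78.2 CPM).

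**Figure D1:**
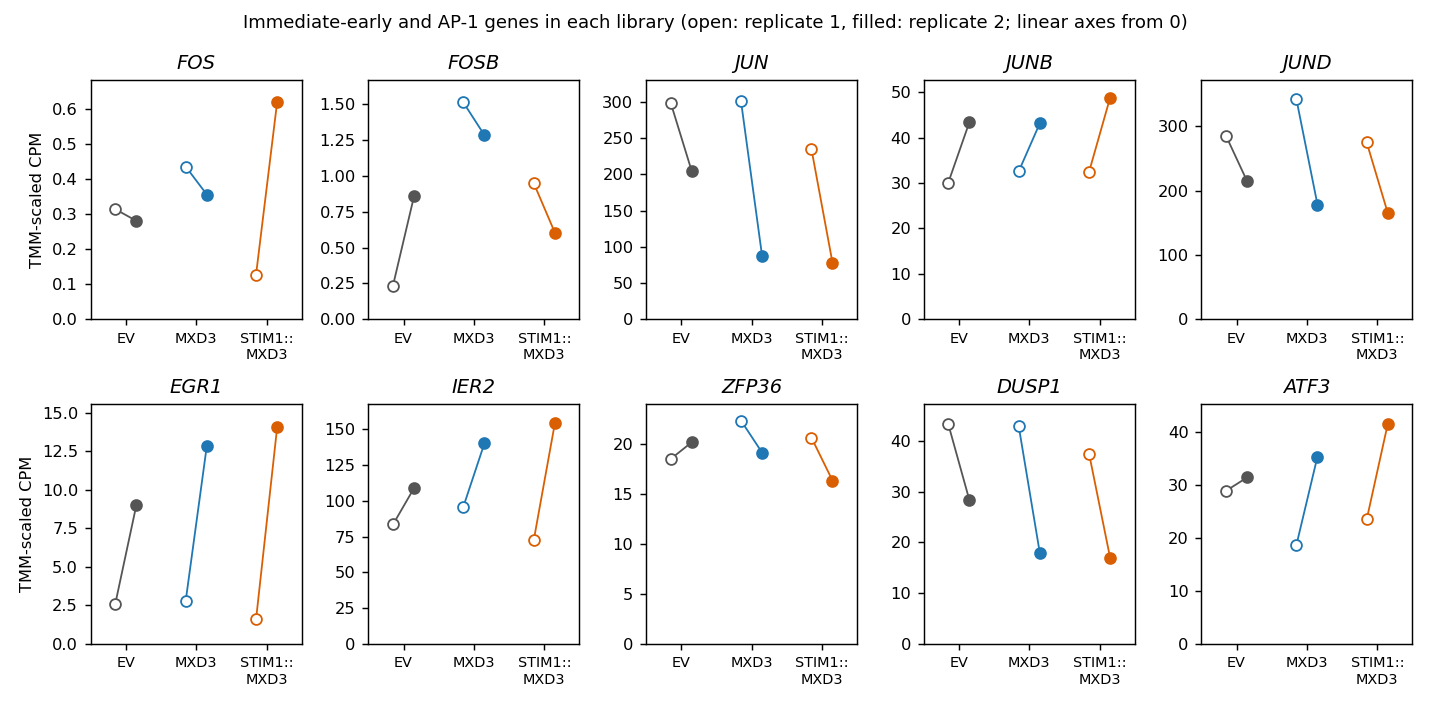
TMM-scaled CPM (linear axes from 0) of each of the 10 genes in the 6 libraries, by plasmid on the x axis, with replicate 1 as an open and replicate 2 as a filled point and a line joining the libraries of a plasmid. The lines of JUN, JUND and DUSP1 fall and those of EGR1, IER2, JUNB and ATF3 rise in all 3 plasmid groups, while EGR1 runs from 1.59 to 14.1 CPM.

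FOS and FOSB encode the Fos partners of AP-1, which cannot pair with themselves. FOS (NCBI Gene 2353, chr14:75745529-75748933 in GRCh37, 3 exon blocks) was read 16 and 17 times with EV, 28 and 20 times with MXD3, and 7 and 39 times with STIM1::MXD3. That is 0.314 and 0.281 CPM with EV, 0.436 and 0.356 with MXD3, and 0.128 and 0.620 with STIM1::MXD3, where 3 counts were worth 0.0467 to 0.0589 CPM. The lowest and the highest FOS value thus came from the same plasmid group. FOSB (2354, chr19:45971253-45978437) had 12 and 52 counts with EV, 97 and 72 with MXD3, and 52 and 38 with STIM1::MXD3, or 0.236 and 0.859, 1.51 and 1.28, and 0.949 and 0.604 CPM. Both FOSB values of the MXD3 group were above all 4 others, and the EV group held a value lower than any other.

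JUN, JUNB and JUND encode the Jun partners, which pair with themselves or with Fos and ATF proteins, and of which JUNB and JUND are often weaker activators than JUN. JUN (3725, chr1:59242517-59249720) was at 299 and 204 CPM with EV, at 301 and 87.1 CPM with MXD3, and at 235 and 78.2 CPM with STIM1::MXD3. The 3 libraries numbered 1 were all above the 3 numbered 2, and the lowest of them all was the second STIM1::MXD3 library. JUND (3727, chr19:18390504-18392432, a single exon block) was at 285 and 215 CPM with EV, 342 and 179 with MXD3, and 275 and 165 with STIM1::MXD3, in the same order within each pair. JUNB (3726, chr19:12902300-12904129, also a single exon block) went the other way, with 30.1 and 43.4 CPM for EV, 32.6 and 43.1 for MXD3, and 32.5 and 48.8 for STIM1::MXD3. JUNB shares 259 exon bases with HOOK2 on the opposite strand, and use of strand in counting was not stated, so reads there cannot be assigned with certainty.

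EGR1, a zinc finger factor driven by SRF sites, and ATF3, a stress-induced partner of the Jun proteins, were low to moderate. EGR1 (1958, chr5:137801168-137804992) was at 2.61 and 9.04 CPM with EV, at 2.79 and 12.9 CPM with MXD3, and at 1.59 and 14.1 CPM with STIM1::MXD3. Every library numbered 2 was thus more than 3 times the highest library numbered 1, and the widest gap was in the STIM1::MXD3 pair. ATF3 (467, chr1:212738676-212794119) was at 28.9 and 31.4 CPM with EV, 18.6 and 35.3 with MXD3, and 23.5 and 41.5 with STIM1::MXD3, with the narrowest gap in the EV pair. IER2 (9592, chr19:13261225-13265725), a small nuclear protein of the growth factor response, was at 83.4 and 109 CPM with EV, 95.9 and 140 with MXD3, and 72.3 and 154 with STIM1::MXD3. IER2 shares 946 and 662 exon bases with 2 long non-coding RNAs annotated on the opposite strand.

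The feedback genes did not move together. DUSP1 (1843, chr5:172195099-172198198) was at 43.3 and 28.3 CPM with EV, at 42.9 and 17.9 CPM with MXD3, and at 37.5 and 16.9 CPM with STIM1::MXD3, so the libraries numbered 1 and 2 did not overlap. ZFP36 (7538, chr19:39897487-39900052) was at 18.5 and 20.2 CPM with EV, 22.4 and 19.2 with MXD3, and 20.7 and 16.4 with STIM1::MXD3, and was the steadiest of the 10, with a range of 16.4 to 22.4 CPM.

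Libraries of the same plasmid differed in most of these genes. With the plasmid group in the model, 7 of the 10 genes differed between replicate numbers 2 and 1 (edgeR quasi-likelihood test, adjusted p under 0.05), 4 higher and 3 lower in replicate 2. Over all 15431 genes tested, 29.2% differed, with 13.1% higher and 16.1% lower. Of these, 10250 had a mean of at least 5 CPM, and a fit limited to such genes called 4042, a higher share. All of the 10 but FOS and FOSB had that mean. The 10 were chosen with earlier results of these data known, so these shares describe them and are no test. At an unadjusted p under 0.05 the 7 were again those that passed, beside 39.8% of all genes. The same 7 genes were those whose CPM did not overlap between the replicate numbers, beside 38.6% of all genes tested (18% higher and 20.6% lower in replicate 2). Without the first or the second STIM1::MXD3 library, 2660 and 2404 genes were called in place of 4499, and 7 of the 10 each time. The labels do not say what the replicate number stands for beyond a separate sample.

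EGR1 was 5.15-fold higher in replicate 2 than in replicate 1, a log2 fold change of 2.36 ± 0.21 (SE, adjusted p = 2.95e-06, edgeR), which was rank 54 of 15431 by size. The difference was 1.78 within the EV pair, 2.19 within the MXD3 pair and 3.12 within the STIM1::MXD3 pair on the log2 CPM scale. IER2 was 1.60-fold higher (0.67 ± 0.10, adjusted p = 2.05e-04), ATF3 1.54-fold higher (0.62 ± 0.13, adjusted p = 0.00166) and JUNB 1.42-fold higher (0.51 ± 0.08, adjusted p = 3.99e-04) in replicate 2. The within-pair log2 differences of JUNB were close to each other at 0.53, 0.41 and 0.59 for EV, MXD3 and STIM1::MXD3. Those of ATF3 were 0.12, 0.92 and 0.82, so its EV pair hardly differed.

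JUN was 2.48-fold lower in replicate 2, with a log2 fold change of -1.31 ± 0.16 (adjusted p = 3.35e-05, edgeR, rank 418 of 15431 by size). Its within-pair differences were -0.55 for EV, -1.79 for MXD3 and -1.59 for STIM1::MXD3. DUSP1 was 2.01-fold lower (-1.005 ± 0.11, adjusted p = 2.19e-05), with -0.61, -1.26 and -1.15 in the 3 pairs, and JUND was 1.62-fold lower (-0.70 ± 0.09, adjusted p = 4.30e-05), with -0.41, -0.94 and -0.74. For all 3 genes the EV pair had the smallest difference. Whether the replicate difference varied with the plasmid could not be tested, since each combination had 1 library.

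**Figure D2:**
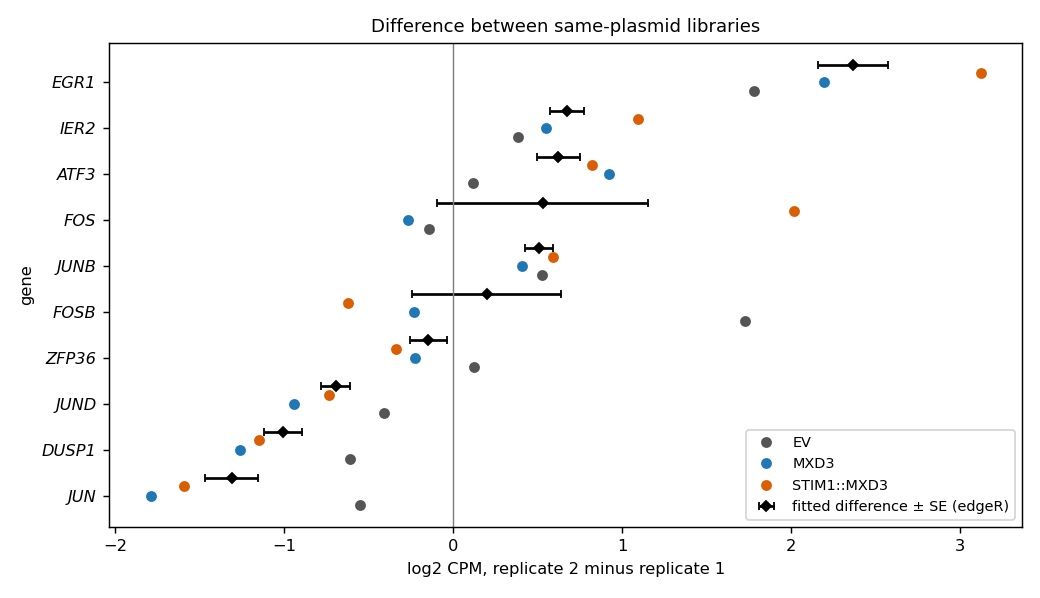
Difference in log2 CPM between replicate 2 and replicate 1 for each of the 10 genes, with a coloured point for each plasmid pair and a black diamond with its standard error for the edgeR fit over all 6 libraries. EGR1 lies farthest to the right at 2.36 and JUN farthest to the left at -1.31, and the pairs of FOS, FOSB and ZFP36 fall on both sides of 0.

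FOS, FOSB and ZFP36 did not pass the test. Their log2 fold changes were 0.53 ± 0.62 (adjusted p = 0.564), 0.20 ± 0.44 (adjusted p = 0.771) and -0.15 ± 0.11 (adjusted p = 0.355, edgeR). FOS and FOSB had 7 to 97 counts a library, and their pairs differed in sign, with -0.15, -0.27 and 2.01 for FOS and 1.73, -0.23 and -0.62 for FOSB in the EV, MXD3 and STIM1::MXD3 pairs. The median log2 fold change of the 10 genes was 0.35, beside 0.0062 for all genes tested, and joined lower levels of JUN, JUND and DUSP1 and higher levels of EGR1, IER2, ATF3 and JUNB.

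Other measures also moved with the replicate number, in a comparison where 16.1% of all genes tested were lower and 13.1% higher. Of the 10 K562 markers, 7 were lower and 1 was higher in replicate 2, among them the globins HBZ (-0.90 ± 0.07, adjusted p = 8.96e-07) and HBG1 (-0.76 ± 0.07, adjusted p = 2.95e-06, edgeR), of which HBG1 may share reads with HBG2. Of the 11 markers of other cells, 9 were tested and EPCAM alone passed, at -0.23 ± 0.07 (adjusted p = 0.0253). The summed level of these markers was 136 to 150 CPM in replicate 1 and 129 to 136 CPM in replicate 2. The share of even values among genes with 1 to 39 counts was 59.8% to 62.7% in replicate 1 and 64.5% to 67.3% in replicate 2, and 7 genes of the 10 were still called after counts were divided by 2. The part of these measures in the result was not tested.

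Genes around the AP-1 core were then followed in the same comparison. The lists used here and below were chosen with earlier results of these data known. Their counts beside the share of all genes are a description and not a test. Of 14 other AP-1 family genes, 12 were tested, and 2 were higher and 2 lower in replicate 2. That is 4 of 12, a share near the 29.2% of all genes called (13.1% higher and 16.1% lower). ATF2 (-0.52 ± 0.08, adjusted p = 2.90e-04) and ATF7 (-0.50 ± 0.08, adjusted p = 3.83e-04), CREB-type partners of JUN, were lower, and JDP2, a repressor that pairs with Jun proteins, was higher (0.52 ± 0.17, adjusted p = 0.0292, edgeR). The median of the 12 was 0.11, and 2 in place of 4 were called without any single MXD3 or STIM1::MXD3 library. Of 39 other immediate-early genes, 31 were tested, with 5 higher, 9 lower (beside 13.1% and 16.1% of all genes) and a median of -0.14. ID2, an inhibitor of basic helix-loop-helix factors (-1.08 ± 0.10, adjusted p = 4.06e-06), BTG1, an antiproliferative gene (-0.74 ± 0.08, adjusted p = 1.27e-05), and SGK1, a serum-induced kinase (-1.11 ± 0.13, adjusted p = 4.05e-05), were lower in replicate 2, the direction of JUN and DUSP1. EGR2 and EGR3, the nearest relatives of EGR1, did not pass the filter. EGR2 had 10 and 6 counts in the MXD3 libraries and 0 in the other 4, and EGR3 had 4 and 2 there and 0 elsewhere. The EGR2 and EGR3 counts were picked out after their values were seen.

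Among the kinases and factors that feed the immediate-early genes, those that passed the test were all lower in replicate 2. Of 21 MAPK and SRF input genes, 16 were lower and 0 higher in replicate 2, with a median of -0.25, beside 16.1% lower among all genes. All of them but ELK3 had a mean of at least 5 CPM, where the share of genes called was higher. A fit limited to such genes called 4042, and 10250 of the genes tested had that mean. BRAF (-0.49 ± 0.08, adjusted p = 4.91e-04) and CREB1 (-0.45 ± 0.08, adjusted p = 6.90e-04, edgeR) had the smallest p-values. The differences were small, with all 21 between -0.49 and 0.17, and the number called fell to 7 without either MXD3 library, to 9 without the first and to 8 without the second STIM1::MXD3 library. Of 13 MAPK feedback genes, 12 were tested, with 2 higher, 3 lower (beside 13.1% and 16.1% of all genes) and a median of -0.14. DUSP8, a JNK and p38 phosphatase (-1.07 ± 0.13, adjusted p = 4.67e-05), and DUSP10 (-0.65 ± 0.11, adjusted p = 4.43e-04) were lower, as was DUSP1, and SPRY4, an inhibitor of receptor kinase signalling, was higher (1.52 ± 0.20, adjusted p = 5.70e-05, edgeR). SPRY4 was at 7.30 and 14.9 CPM with EV, 10.8 and 24.1 with MXD3, and 5.87 and 31.2 with STIM1::MXD3, which is the order seen for EGR1.

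Calls in the next lists stand beside 13.1% of all genes tested higher and 16.1% lower in replicate 2. AP-1 target genes were split. Of 13 listed, 10 were tested, with 3 higher, 2 lower and a median of -0.062, and 3 were called without either MXD3 library and 2 without either STIM1::MXD3 library. VIM, the intermediate filament vimentin (-0.77 ± 0.06, adjusted p = 1.76e-06), was lower in replicate 2, while CCND1, which encodes cyclin D1 (0.88 ± 0.13, adjusted p = 1.87e-04, edgeR), was higher. Of 9 heat shock genes, 8 were tested, with 1 higher, 4 lower and a median of -0.29, and 3 were called without either STIM1::MXD3 library. DNAJB1, a co-chaperone of HSP70, had the smallest p-value of them (-0.95 ± 0.08, adjusted p = 1.86e-06), followed by HSPE1 (0.44 ± 0.08, adjusted p = 6.51e-04) and BAG3 (-0.38 ± 0.07, adjusted p = 0.00131, edgeR). All 9 integrated stress response genes were tested, and 7 were higher and 0 lower, with a median of 0.50, beside 13.1% higher among all genes. This list too was chosen with earlier results known. All of its genes but VLDLR had a mean of at least 5 CPM, where a higher share of genes was called. CHAC1, which degrades glutathione (1.53 ± 0.18, adjusted p = 2.62e-05), DDIT4, an inhibitor of mTORC1 (0.79 ± 0.11, adjusted p = 1.52e-04), and SESN2, also an inhibitor of mTORC1 (0.66 ± 0.10, adjusted p = 1.95e-04, edgeR), led this list, to which ATF3 is often counted as well.

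**Figure D3:**
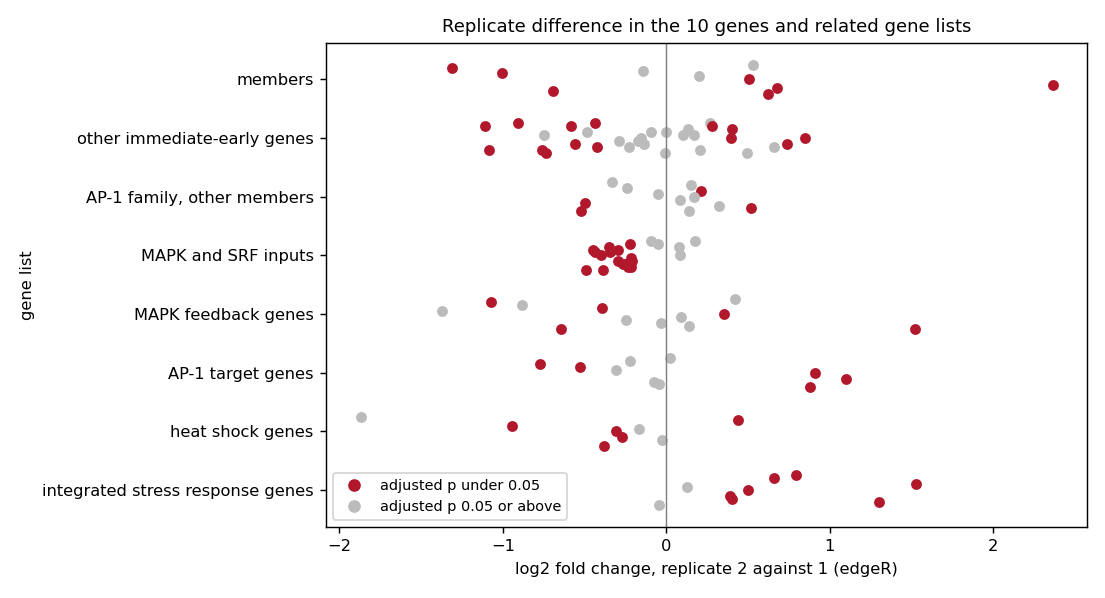
log2 fold change between replicate 2 and replicate 1 (edgeR) on the x axis for each tested gene of 8 lists, with red points for an adjusted p under 0.05 and grey points for the rest. The MAPK and SRF input genes that passed all lie left of 0, the integrated stress response genes that passed all lie right of 0, and the 10 genes ("members") spread from -1.31 to 2.36.

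Genes were ranked by the Pearson r of their log2 CPM with the mean standardized log2 CPM of the 10. Among genes with a mean of at least 5 CPM the highest were PEX5 (r = 0.993), NSD1 (0.993), MTCL2 (0.987), ZNF263 (0.979) and CREB3L2 (0.977), over 6 libraries that form 3 plasmid pairs. This likeness is a description without a test, and the rising and falling genes of the 10 largely cancel in the mean it uses. EGR1 and JUN, for example, had an r of -0.85 with each other. The genes named resemble that mean and not each of the 10.

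The plasmid comparisons asked whether wild-type MXD3 or its fusion changed these genes. In none of the 3 comparisons did any of the 10 pass, whether the replicate number was left out of the model (the fit on which the comparisons rest) or included. Without it, 0 of 10 were called for STIM1::MXD3 against EV and for MXD3 against EV, beside 0.00648% of all genes in each, and 0 of 10 for STIM1::MXD3 against MXD3, beside 0% of all genes. At an unadjusted p under 0.05, 0 of the 10 passed in each, beside 0.953%, 1.86% and 1.01% of all genes, and DESeq2 also called 0 of 10 (adjusted p). The 2 comparisons with EV share the EV libraries. In each of them the 1 gene called was called higher. The highest log2 fold changes over all genes, 7.51 with STIM1::MXD3 and 7.80 with MXD3, have the size seen for MXD3 itself. Both plasmids carry MXD3 sequence, so these calls cannot be read as a response of the cell's own genes. The fit without the replicate number counts the replicate difference as spread, and called at most 1 of the 15431 genes in any comparison. Its 0 of 10 therefore cannot decide whether the plasmids left these genes unchanged.

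JUN had the lowest fold change of the 10 with both plasmids, and most of it came from the libraries numbered 2. Its log2 fold change was -0.68 ± 0.65 for STIM1::MXD3 against EV (adjusted p = 1.00, edgeR). For MXD3 against EV it was -0.38 ± 0.65 (adjusted p = 0.999, edgeR). Within the libraries numbered 1, JUN differed from EV by -0.34 with STIM1::MXD3 and by 0.0088 with MXD3. Within those numbered 2, it differed by -1.39 and -1.23. In the fit with the replicate block, its fold changes were -0.90 ± 0.19 (adjusted p = 0.185) and -0.64 ± 0.19 (adjusted p = 0.149, edgeR). DUSP1 followed JUN, with -0.21 and -0.74 for STIM1::MXD3 and -0.011 and -0.66 for MXD3 in the libraries numbered 1 and 2, and its values in the blocked fit were -0.48 ± 0.14 (adjusted p = 0.413) and -0.33 ± 0.14 (adjusted p = 0.291, edgeR).

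FOSB had the highest fold change of the 10, 1.33 ± 0.62 for MXD3 against EV without the block (adjusted p = 0.999) and 1.38 ± 0.54 with it (adjusted p = 0.265, edgeR), from 12 and 52 counts with EV to 97 and 72 with MXD3. Within the libraries numbered 1 and 2 the difference was 2.52 and 0.56. For EGR1 the standard error without the block was 1.08 in both comparisons with EV, around values of 0.43 for STIM1::MXD3 and 0.42 for MXD3, a fit in which the replicate difference counts as spread. With the block, EGR1 was at 0.085 ± 0.25 for STIM1::MXD3 (adjusted p = 0.953) and at 0.31 ± 0.25 for MXD3 (adjusted p = 0.623, edgeR). IER2, JUNB, JUND, ZFP36, ATF3 and FOS lay between -0.24 and 0.44 in both blocked comparisons with EV.

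**Figure D4:**
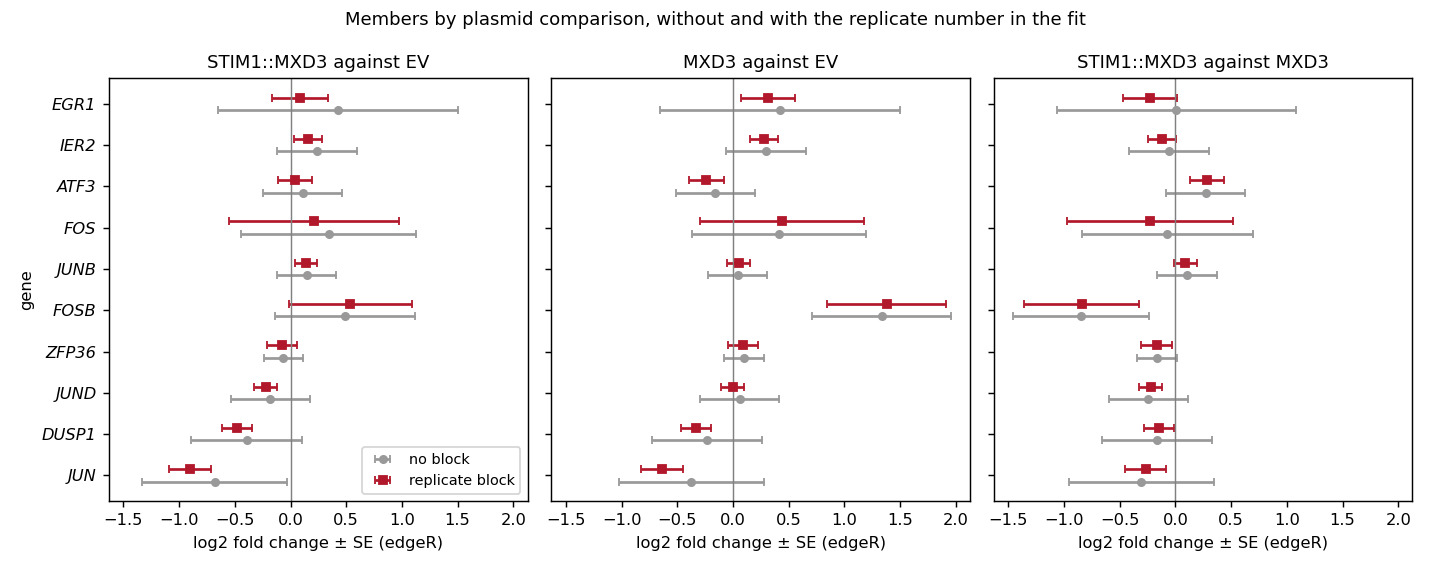
log2 fold change with its standard error (edgeR) for each of the 10 genes in the 3 plasmid comparisons, in grey for the fit without the replicate block and in red for the fit that has it. The block narrowed the errors of EGR1, JUN, DUSP1 and JUND while the values stayed within 1.5 log2 units of 0, and none of the 30 differences passed in either fit.

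With the block, 3, 4 and 1 of the 10 reached an unadjusted p under 0.05 when the fusion was set against EV, MXD3 against EV, and the fusion against MXD3, beside 8.5%, 13.9% and 6.49% of all genes. None passed after adjustment, beside 0.0194% (0.013% higher and 0.00648% lower), 0.292% (0.104% higher and 0.188% lower) and 0.00648% of all genes. The blocked fit called members only when a library was left out, and those fits had 1 residual degree of freedom. A group left with 1 library is fitted exactly there, so the spread comes from the other pairs alone. Only the log2 fold changes of these fits are therefore given. Without the first EV library, JUN (-1.44), DUSP1 (-0.77) and JUND (-0.43) were called lower with STIM1::MXD3. In the same fit JUN (-1.18) and DUSP1 (-0.63) were called lower and IER2 (0.51) higher with MXD3. JUN was also called lower with STIM1::MXD3 without either MXD3 library (-0.86 without the first and without the second) and without the first STIM1::MXD3 library (-1.11). For the remaining leave-outs that made a call, FOSB (2.77) and ATF3 (-0.61) were called with MXD3 without the second EV library, JUN with MXD3 without the first MXD3 library (-0.99), DUSP1 with STIM1::MXD3 without the second MXD3 library (-0.47), JUN against MXD3 without that library (-0.59), and IER2 with STIM1::MXD3 without the first STIM1::MXD3 library (0.46).

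Related genes in the plasmid comparisons gave few calls. Without the block, 0 genes of the related lists were called in any comparison. With it, the MXD3 against EV comparison called PPP1R15A, which encodes the eIF2 alpha phosphatase subunit GADD34, at -0.65 ± 0.10 (adjusted p = 0.0220, edgeR). It was at 559 and 486 CPM with EV, at 380 and 291 CPM with MXD3, and at 431 and 262 CPM with STIM1::MXD3, so both EV libraries were above the other 4. CITED2, a CBP and p300 binding coregulator (-0.82 ± 0.14, adjusted p = 0.0274), DUSP8 (-0.81 ± 0.16, adjusted p = 0.0482) and the marker HBZ (0.40, adjusted p = 0.0482, edgeR) were called too. That fit called 0.292% of all genes, 2 of 31 other immediate-early genes, 1 of 12 MAPK feedback genes and 1 of 10 K562 markers. CITED2 was at 253 and 161 CPM with EV and 143 and 91.1 with MXD3. The groups overlapped for DUSP8 (47.6 and 30.6 with EV, 31.3 and 15.4 with MXD3). They also overlapped for HBZ (263 and 145 with EV, 354 and 188 with MXD3). CITED2 and DUSP8 were picked out after their values were seen. For STIM1::MXD3 against EV the blocked values were -0.63 for PPP1R15A (adjusted p = 0.0514) and -0.99 for DUSP8 (adjusted p = 0.0514, edgeR).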

How the data were processed

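The authors deposited a table of raw counts for each library, with genes listed under NCBI Gene identifiers. The submitters' processing notes name HISAT2 2.2.1, featureCounts 2.0.1 and the build hg19, and the study's methods name the DRAGEN RNA Pipeline for its RNA-seq without saying whether it made these tables. Annotation release and strand setting are not given in the sources used here. Libraries were poly(A) enriched. Groups and replicate numbers came from the sample titles.

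Identifiers were named from the reference gene tables (92.2% matched), and positions and exon lengths came from a GRCh37 annotation. Counts were filtered with filterByExpr, scaled by TMM and tested with edgeR 4.0.16 (R 4.3.3) quasi-likelihood F tests over all 6 libraries, with Benjamini-Hochberg adjustment over the 15431 genes tested and a threshold of 0.05. A standard error is the size of the log2 fold change divided by the square root of F, and log2 CPM values for single libraries used a prior count of 2. Plasmid comparisons had no further term. The replicate number was tested with the plasmid group in the model. The code was tested on simulated data. Alternatives included DESeq2 1.42.0, other scalings and filters, offsets for GC content and length, the replicate number as a block and leaving out each library.

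Same-numbered libraries deviated together from their group means, with r over 15431 genes of 0.27 between the EV and MXD3 pairs, 0.36 between EV and the fusion, and 0.45 between MXD3 and the fusion. The numbers were therefore taken to pair the libraries, a pairing that comes from the data and not from the labels. With 2 libraries a group, p-values of the plasmid fit without the block rest on the spread between libraries of the same plasmid. With the replicate number in the model, they rest on how far the replicate difference varied between the 3 plasmid pairs.

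The 10 genes and the related gene lists were chosen with earlier results of these data known. All 10 genes are named, with up to 3 genes of smallest p from each related list in each comparison, and some genes of these lists are not reported here. Promoters came from RefSeq, and motifs were searched on both strands.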

Additional observations from a re-analysis of the deposited data

How the results depend on the processing

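For replicate 2 against 1, the 7 genes EGR1, IER2, ATF3, JUNB, JUN, DUSP1 and JUND kept their direction and their side of the threshold in all 15 alternatives. The number of genes called was 2413 without both STIM1::MXD3 libraries and between 2404 (without STIM1::MXD3 replicate 2) and 4452 (without EV replicate 1) when 1 library was left out, against 4499 with all libraries, and was 2660 without STIM1::MXD3 replicate 1. FOS ranged from -0.23 to 1.02 and FOSB from -0.43 to 0.65 when a library was left out, FOS was at -0.21 without both STIM1::MXD3 libraries and FOSB at -0.42 without both EV libraries, and neither was called in any of them. Both drop out at a mean CPM minimum of 5. Over all genes, 1, 1 and 0 were called when the fusion was set against EV, MXD3 against EV, and the fusion against MXD3. The counts were 3, 45 and 1 in the fit with the replicate block, 3, 3 and 1 with DESeq2, and 29, 243 and 11 with DESeq2 and the block. They were 3, 37 and 1 with GC content and length offsets and the block, and 2 and 1 for the first and last of them with no filter on low counts. Leaving out 1 library put these counts between 1 and 174, between 1 and 435, and between 0 and 76, and the number of the 10 genes called between 0 and 3, between 0 and 3, and between 0 and 1. Calls among the 10 came only from the blocked fits with a library left out. A group left with 1 library in such a fit is assumed to vary like the others. The 10 genes had no call in any other alternative, and the block changed no other call among them. Values near 0 changed sign. For MXD3 against EV, JUND was at -0.0025 with the block, -0.0069 with DESeq2 and the block, and -0.013 with the offsets and the block. For STIM1::MXD3 against MXD3, EGR1 was at -0.23 with the block, -0.0036 with DESeq2, -0.26 with DESeq2 and the block, -0.040 with the offsets, and -0.25 with the offsets and the block, while FOS was at 0.0067 with counts divided by 2. With 1 library left out, the log2 fold changes for STIM1::MXD3 against EV changed sign within the range of FOS from -1.32 to 1.17, FOSB from -0.39 to 1.90, JUNB from -0.19 to 0.43, JUND from -0.60 to 0.13 and EGR1 from -1.89 to 1.59. In the same fits the range covered IER2 from -0.42 to 0.68, ZFP36 from -0.28 to 0.13, DUSP1 from -1.08 to 0.062 and ATF3 from -0.37 to 0.46. With 1 library left out, the log2 fold changes for MXD3 against EV changed sign within the range of FOS from -0.29 to 1.01, JUN from -1.52 to 0.25, JUNB from -0.20 to 0.33, JUND from -0.47 to 0.44 and EGR1 from -1.08 to 1.58. In the same fits the range covered IER2 from -0.017 to 0.56, ZFP36 from -0.11 to 0.30, DUSP1 from -0.98 to 0.25 and ATF3 from -0.71 to 0.24. With 1 library left out, the log2 fold changes for STIM1::MXD3 against MXD3 changed sign within the range of FOS from -1.72 to 0.76, JUN from -1.31 to 0.83, JUNB from -0.23 to 0.37 and JUND from -0.66 to 0.29. In the same fits the range covered EGR1 from -2.31 to 1.51, IER2 from -0.72 to 0.38, DUSP1 from -0.85 to 0.59 and ATF3 from -0.21 to 0.82. The cause of these changes was not tested. FOS and FOSB had 7 to 97 counts a library, and each group had 2 libraries.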
